A study of Mus musculus with 6 samples.

Results

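The Slco and Slc22a genes encode the carriers that take organic anions and organic cations into cells, and 60 probe sets of 36 of these genes were read among 45101 on the array. A probe set was taken when its annotation gave exactly 1 gene symbol and that symbol began with Slco and a digit or with Slc22a. This gave 32 probe sets of 15 Slco genes and 28 probe sets of 21 Slc22a genes. A further probe set annotated jointly to Slc22a30 and Slc22a29 was set aside.

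Slco carriers, the organic anion transporting polypeptides, exchange bile acids, bilirubin conjugates, steroid conjugates, thyroid hormones and many drugs across the plasma membrane, and in liver they work mainly on the side of the hepatocyte that faces the blood. The Slc22a family holds the organic cation transporters, the carnitine and ergothioneine carriers and the organic anion transporters, many of which are best known from the kidney tubule. Substances taken up in this way are then metabolised, or passed into bile by export pumps on the canalicular side of the cell.

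Liver RNA was measured in 3 B6.Alb/cre,Pdss2loxP/loxP mutants and in 3 B6.Pdss2loxP/loxP controls, with 1 Affymetrix array per mouse, and the series was made to look for changes in metabolic pathways. In the mutants, cre recombinase is made from the albumin promoter, which is active in hepatocytes, to delete Pdss2, a gene needed to build coenzyme Q. Whether other liver cells kept Pdss2 was not checked. Both genotypes carried the loxP-flanked allele, and the controls carried no cre. All were male. Ages were 176, 178 and 224 days for mutants 1 to 3 and 209, 213 and 140 days for controls 1 to 3, and food had been withdrawn for 3 hours. The genotypes were housed in separate cages, so that cage and genotype cannot be told apart, and no hybridization date is given. In whole liver, fewer cells of a type and less RNA per cell cannot be told apart.

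Values are log2 intensities per probe set, and every difference is the mutant mean minus the control mean. Directions follow the sample labels. The study describes oxidative phosphorylation among the pathways upregulated in these mutants, from gene set enrichment on KEGG pathways. The count given next is of probe sets chosen by gene symbol, so measure and gene set differ. In the arrays as labelled, 134 of 185 probe sets of oxidative phosphorylation genes were lower in mutants, with a median difference of -0.62, which is the opposite direction, and an exchange of labels was not tested. On Pdss2 itself, probe set 1444085_at read 6.94, 6.88 and 7.05 in mutants and 7.46, 7.47 and 7.56 in controls, a difference of -0.54 with an adjusted p of 0.118 from limma. The other probe sets of Pdss2 differed by 0.40 and 0.35 with overlapping groups, and the position of these probe sets with respect to the floxed exon was not known, so that the deletion itself was not checked. Array medians were 6.12 to 6.24 in mutants and 5.92 to 6.12 in controls, and the median difference over all 45037 probe sets tested was 0.17. After centring each array on its median that shift was 0.01, and centred differences are given below where they matter. Of the hybridization controls added to every sample, those for BioB, BioC and BioD read higher on the mutant arrays, by 1.36 to 1.82. Those for CreX were higher as well, by 0.54 and 0.64, with every mutant array above every control array. The 3' minus 5' difference of Gapdh was 0.45, -1.06 and -1.78 in mutants and 2.31, 2.02 and 2.30 in controls. In mutants the 5' probe set of Gapdh was higher by 1.71 on average, and the 3' and middle ones lower by 1.30 and 0.77. Whether RNA integrity has a part in this difference was not tested. The 3' minus 5' difference of Actb was 2.60, 3.95 and 4.50 in mutants and 3.82, 3.90 and 3.11 in controls. There the groups overlapped, and mutants 2 and 3 lay above mutant 1 rather than below it. The middle probe set of Actb read 11.14, 9.77 and 9.32 in mutants and 10.84, 10.17 and 11.07 in controls. Mutants 2 and 3 thus lay below every control on it, and mutant 1 above. The part of any of these readings in the results was not tested. Hepatocyte markers, albumin among them, had list means of 12.66 to 13.07 on the 6 arrays, so the labelled tissue was present in both groups.

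For 3 genes on which the results turn, the promoter window of 250 bases before to 50 bases after the start site is shown, 5′ to 3′ on the strand of the gene, from RefSeq on build GRCm38.p6. Capitals mark every match, on either strand, to TATAAA, to the GC box GGGCGG, to CCAAT, to GTTAAT, part of the site bound by HNF1 factors, and to AGGTCA, which nuclear receptors bind.
Slco1b2: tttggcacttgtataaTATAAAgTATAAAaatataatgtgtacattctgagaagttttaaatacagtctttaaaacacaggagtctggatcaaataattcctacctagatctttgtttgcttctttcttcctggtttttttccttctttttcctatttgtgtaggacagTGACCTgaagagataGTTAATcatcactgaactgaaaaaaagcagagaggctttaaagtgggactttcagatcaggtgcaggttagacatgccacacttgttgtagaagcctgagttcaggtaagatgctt
Slc22a5: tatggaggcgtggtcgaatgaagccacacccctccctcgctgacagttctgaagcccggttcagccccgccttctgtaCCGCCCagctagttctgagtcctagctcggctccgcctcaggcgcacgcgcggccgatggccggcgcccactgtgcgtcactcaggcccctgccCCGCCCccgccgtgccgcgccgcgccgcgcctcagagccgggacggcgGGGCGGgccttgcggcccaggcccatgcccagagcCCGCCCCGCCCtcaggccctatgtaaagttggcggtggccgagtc
Slc22a18: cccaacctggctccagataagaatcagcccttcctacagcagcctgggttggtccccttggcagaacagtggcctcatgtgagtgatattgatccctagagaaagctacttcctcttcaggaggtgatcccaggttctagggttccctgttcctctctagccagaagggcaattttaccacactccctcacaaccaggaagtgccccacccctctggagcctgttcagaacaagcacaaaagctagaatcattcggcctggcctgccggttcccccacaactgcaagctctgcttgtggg
The window of Slco1b2 at chr6:141629268-141629567 (plus strand) holds TATAAA 234 and 227 bases before the start, AGGTCA on the opposite strand 81 bases before it and GTTAAT 66 bases before it. That of Slc22a5 at chr11:53891654-53891953 (minus strand) holds 5 GC boxes, of which those at 5 and 10 bases after the start overlap. The window of Slc22a18 at chr7:143473539-143473838 (plus strand) holds none of the 5 motifs. Among 32851 promoter windows of this length, 13.6% held TATAAA, 35.7% GGGCGG, 37.4% CCAAT, 7.1% GTTAAT and 16.3% AGGTCA. A match in these letters is not a binding site shown to be used. Windows were found for 32 of the 36 genes.

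Across both families, 3 of the 60 probe sets passed the test of all probe sets, an adjusted p under 0.05 from limma. Slc22a5, the carnitine carrier, and Slco5a1 rose in mutants, and Slc22a18 fell. In the Slco family 1 of 32 probe sets rose and none fell, and in the Slc22a family 1 of 28 rose and 1 fell. Over the whole array 1.25% of probe sets rose and 0.746% fell. At an unadjusted p under 0.05 in limma, 6 Slco and 5 Slc22a probe sets were higher and 2 of each family lower, against 15.7% higher and 9.54% lower over the array. Every mutant lay above every control on 8 Slco and 8 Slc22a probe sets, and below on 2 and 3, against 21.2% and 10.7% of all probe sets. The median difference was 0.27 over the Slco probe sets and 0.25 over the Slc22a probe sets, and 0.11 and 0.09 after median centring. Differences were positive for 23 of 32 and 20 of 28, or 71.9% and 71.4%, against 65.2% of all probe sets. Among members with a mean below the median of all probe sets, 17 of 20 Slco and 10 of 12 Slc22a differences were positive. Among the brighter members it was 6 of 12 and 10 of 16, with median differences of -0.06 and -0.05 after median centring. The same split over the whole array was not made.

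**Figure D1:**
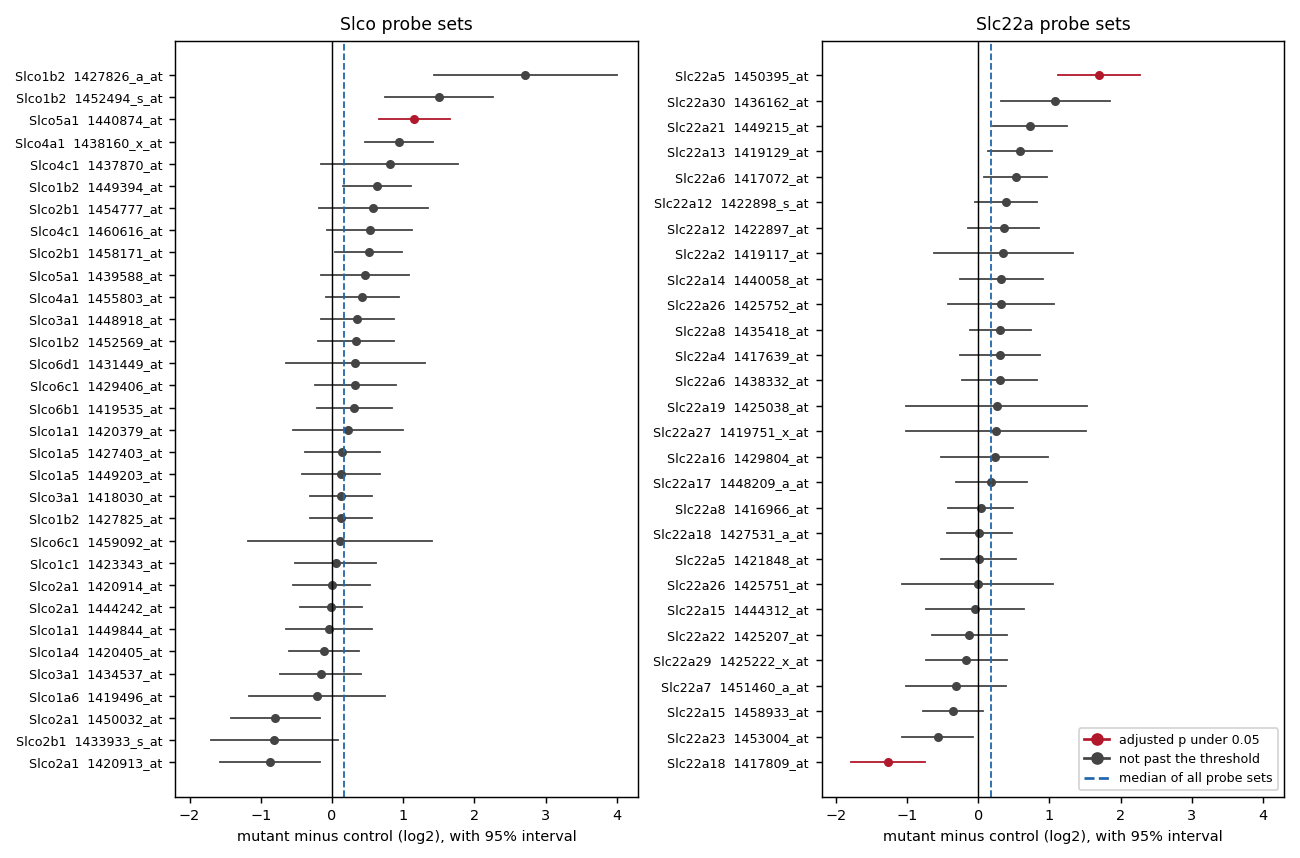
Difference between mutants and controls for each of the 32 Slco (left) and 28 Slc22a (right) probe sets, on the log2 scale with its 95% interval from limma, 3 mice per group; the dashed line is the median of all probe sets, 0.17. The 3 that passed the adjusted threshold are red, Slco5a1 1440874_at at 1.15, Slc22a5 1450395_at at 1.69 and Slc22a18 1417809_at at -1.27, while Slco1b2 1427826_a_at, at 2.72, has a wide interval.

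Slc22a5 encodes OCTN2, the sodium-dependent carrier that brings carnitine into cells. Probe set 1450395_at read 9.02, 9.73 and 9.09 in mutants and 7.43, 7.79 and 7.53 in controls. All mutants were above all controls, with mutant 2 the highest. The mutant level was 3.24-fold that of controls, a difference of 1.69 with a standard error of 0.25 and an adjusted p of 0.0345 from limma, and after median centring it was 1.53 with an adjusted p of 0.0481. The second probe set of the gene, 1421848_at, read 5.35, 5.80 and 5.58 in mutants and 5.26, 5.67 and 5.77 in controls. Here the groups overlapped and the difference was 0.01, with a 95% interval of -0.52 to 0.53, which does not reach the difference on the first probe set. The call on 1450395_at held when mutant 1 was left out and for no other mouse left out, with differences of 1.47 to 1.82. Over the whole array, however, no probe set passed without mutant 2, mutant 3, control 2 or control 3. Without control 1, only 1 was higher and 2 were lower. The loss of the call in these fits is therefore not particular to this gene.

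In the RefSeq annotation of GRCm38.p6 its neighbours among these genes on chromosome 11 are Slc22a21, a further carnitine carrier, and Slc22a4, which encodes OCTN1, a carrier of ergothioneine. Slc22a21 read 5.36, 5.51 and 5.92 in mutants and 4.77, 4.76 and 5.08 in controls, without overlap, a difference of 0.72 with an adjusted p of 0.104 from limma. Its mean lay at the 23.8th percentile of all probe sets, where the signal over background is unknown. For Slc22a4 the values were 5.54, 5.83 and 6.06 in mutants and 5.14, 5.68 and 5.69 in controls. Mutant 1 lay within the control range, and the difference was 0.31 with an adjusted p of 0.474 from limma, and 0.12 without control 1 and 0.18 without mutant 3. Slc22a16, known as a carnitine carrier of the testis, differed by 0.23 and Slc22a2, the organic cation transporter of the kidney, by 0.35, with overlapping groups in both.

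Genes that make or use carnitine were read beside these carriers. Of 20 probe sets of 8 such genes, none rose and 2 fell, against 0.746% of all probe sets, and the median difference was -0.71. Cpt2, the carnitine palmitoyltransferase of the inner mitochondrial membrane, read 6.38, 5.24 and 5.27 in mutants and 7.97, 7.77 and 7.82 in controls on 1447820_x_at, a fall of 2.23 on the log2 scale with an adjusted p of 0.0345 from limma. Its other probe set differed by -1.41 with an adjusted p of 0.0638, again with every mutant below every control. Tmlhe, the first enzyme of carnitine synthesis, fell by 1.49 on 1420725_at with an adjusted p of 0.0477 from limma, with mutants at 5.82, 4.82 and 5.34 and controls at 7.003, 6.71 and 6.74. Of its 3 other probe sets, 1 differed by -1.25 without overlap and the others by -0.03 and -0.07. Bbox1, the last enzyme of that synthesis, lay lower in every mutant on both of its probe sets, by 2.18 and 1.29 on the log2 scale, without passing the test (adjusted p = 0.0851 and 0.0836 from limma). Mutant 1 was the nearest to the controls on Cpt2, on Bbox1 and on the falling probe set of Tmlhe. Leaving out any 1 mouse other than mutant 1 ended the calls on Cpt2 and Tmlhe, as it did nearly every call on the array. Median centring ended that on Tmlhe.

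Slc22a18 is an imprinted gene whose protein resembles organic cation transporters. Probe set 1417809_at read 8.63, 8.09 and 8.05 in mutants and 9.52, 9.64 and 9.41 in controls. Every mutant was below every control, and mutant 1 was nearest to the controls. The mutant level was 41.5% of the control level, a difference of -1.27 with a standard error of 0.22 and an adjusted p of 0.0452 from limma. After median centring the difference was -1.43 and the adjusted p 0.0538. The second probe set, 1427531_a_at, read 7.69, 7.62 and 7.39 in mutants and 7.38, 7.68 and 7.60 in controls, a difference of 0.02 with a 95% interval of -0.44 to 0.47. The groups overlapped, and this difference turned to -0.14 after median centring. As for Slc22a5, the call on 1417809_at held only when mutant 1 was the mouse left out, with differences of -1.46 to -1.17. The other fits with a mouse left out had almost no call on the whole array, so this loss is not particular to Slc22a18.

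Other members of the family without a settled transport role in liver moved less. Slc22a23, an orphan member that liver expresses, read 8.37, 7.89 and 8.06 in mutants and 8.84, 8.48 and 8.71 in controls. The mutants lay below the controls without overlap, and the difference of -0.57 had an adjusted p of 0.151 from limma. Slc22a15 differed by -0.36 without overlap on 1458933_at and by -0.04 with overlap on its second probe set. Slc22a17, which encodes a receptor for lipocalin 2, differed by 0.18 and Slc22a14, known from testis, by 0.32, both with overlapping groups.

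**Figure D2:**
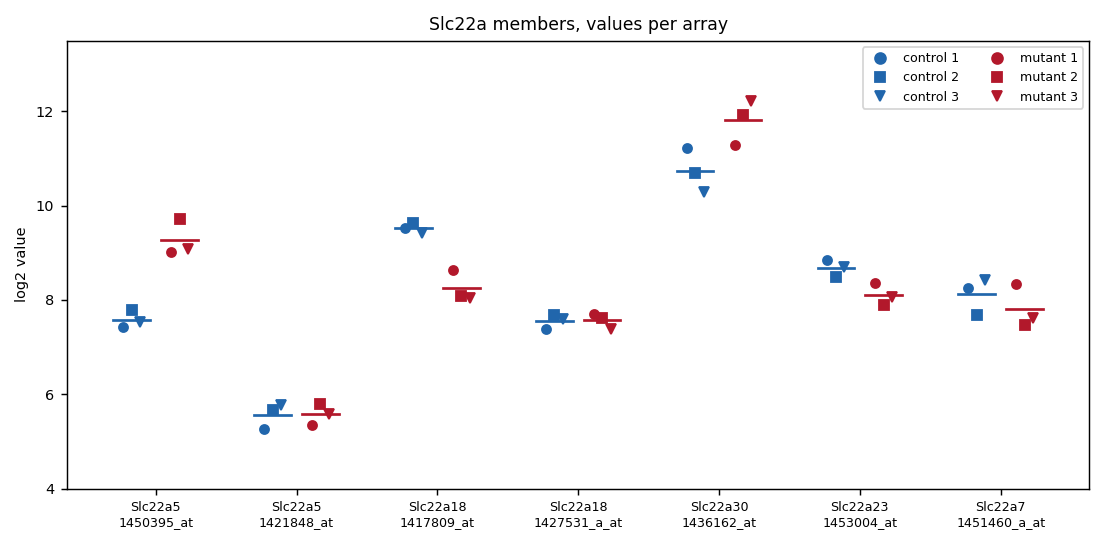
Log2 value of each array for 7 probe sets of 5 Slc22a genes, controls in blue and mutants in red, with a marker shape per replicate number and a line at each group mean. The groups were apart on Slc22a5 1450395_at, Slc22a18 1417809_at, Slc22a30 and Slc22a23 and overlapped on the second probe sets of Slc22a5 and Slc22a18 and on Slc22a7.

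The anion carriers of the Slc22a family gave no call among 15 probe sets of 11 genes, of which 3 were higher and none lower at an unadjusted p under 0.05 in limma, against 15.7% and 9.54% of all probe sets. Slc22a30, a rodent member of an anion transporter cluster on chromosome 19, read 11.28, 11.92 and 12.23 in mutants and 11.22, 10.68 and 10.28 in controls. The groups were separated by the narrow gap between mutant 1 and control 1, and the difference of 1.08 had a standard error of 0.33 and an adjusted p of 0.0997 from limma. Slc22a7, which encodes OAT2, a liver carrier of small organic anions, read 8.33, 7.46 and 7.62 in mutants and 8.25, 7.68 and 8.42 in controls, a difference of -0.31 with overlap, which ran from -0.58 without mutant 1 and -0.53 without control 2 to -0.16 without control 3 and -0.14 without mutant 2. Slc22a13, which carries urate and nicotinate, was higher in every mutant by 0.58, with an adjusted p of 0.118 from limma. Slc22a6, which encodes OAT1 of the kidney tubule, was higher in every mutant by 0.52 on 1417072_at and by 0.30 with overlap on its other probe set. For Slc22a8, which encodes OAT3, the differences were 0.03 with overlap and 0.31 with every mutant higher. For the urate carrier Slc22a12 they were 0.36 and 0.39, with every mutant higher on both probe sets. From the chromosome 19 cluster, Slc22a19 differed by 0.26, Slc22a26 by -0.01 and 0.32, Slc22a27 by 0.25 and Slc22a29 by -0.17, and Slc22a22, a prostaglandin carrier of the kidney, by -0.12. The groups overlapped on all 6 of these probe sets. Of 6 kidney tubule markers, 4 had a mean in the lower quartile of all probe sets, none was called, and the list mean was 5.37 in each mutant and 5.06 to 5.38 in controls.

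Slco1b2, the mouse counterpart of human OATP1B1 and OATP1B3, brings bilirubin, bile acids and many drugs into hepatocytes, and its probe sets gave the widest range of differences in the family. Probe set 1427826_a_at read 9.28, 10.24 and 8.68 in mutants and 7.57, 6.88 and 5.60 in controls. All mutants were higher, but arrays of the same genotype spread by more than 1.5 on the log2 scale. The difference was 2.72 with a standard error of 0.56, a 95% interval of 1.43 to 4.003 and an adjusted p of 0.053 from limma, just outside the threshold. On 1452494_s_at the mutants read 12.26, 12.67 and 12.37 and the controls 11.57, 10.90 and 10.30, a difference of 1.51 with a standard error of 0.33 and an adjusted p of 0.0578. On 1449394_at the mutants read 12.14, 12.49 and 12.54 and the controls 11.86, 11.82 and 11.60, a difference of 0.63 with an adjusted p of 0.114. The 3 probe sets thus had separate groups but unequal differences, and control 3 was the lowest array on each. The remaining ones, 1427825_at and 1452569_at, differed by 0.12 and 0.33 with overlapping groups. The suffix _s marks probes that can match more than 1 transcript family and _a those that can match several transcripts of a gene. The differences of 2.72 and 1.51 passed the test when probe sets with a mean under the table median were left out (adjusted p = 0.0309 and 0.0332 from limma) and with age as a covariate (adjusted p = 0.0389 and 0.038), and with the trend and robust options the first passed as well. Neither passed after median centring (adjusted p = 0.0711 and 0.0905 from limma), after quantile normalization (0.0522 and 0.0714) or without any 1 mouse (0.057 to 0.188 and 0.0563 to 0.202). With any mouse but mutant 1 left out, almost no probe set of the array passed. Without both mutant 2 and control 3 the difference on 1427826_a_at was 1.75.

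**Figure D3:**
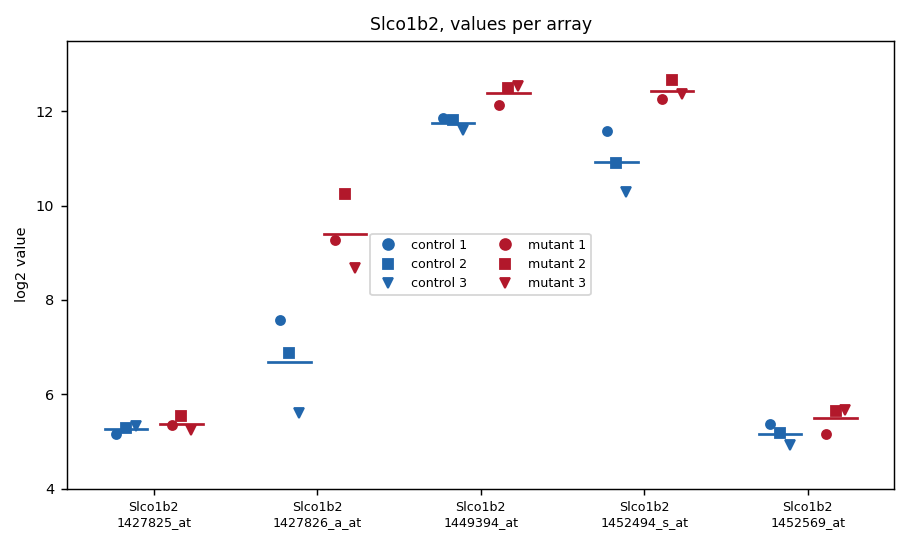
Log2 value of each array for the 5 probe sets of Slco1b2, controls in blue and mutants in red, with a marker shape per replicate number and a line at each group mean. Differences of 2.72, 1.51 and 0.63 with separate groups stand beside 2 probe sets, at 0.12 and 0.33, whose groups overlap.

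Slco1a1 and Slco1a4, which lie near Slco1b2 on chromosome 6, take up bile acids, steroid conjugates and, for Slco1a4, cardiac glycosides. The brighter probe set of Slco1a1, 1420379_at, read 10.50, 10.66 and 10.86 in mutants and 11.22, 10.09 and 10.03 in controls, so that control 1 was above all mutants and the other controls below them. Its difference was 0.23 with a 95% interval of -0.55 to 1.00, and that of 1449844_at was -0.04. The value on 1420379_at rested on single mice, with 0.61 without control 1, 0.13 without mutant 3, 0.05 without control 2 and 0.02 without control 3. Slco1a4 read 9.39, 9.45 and 9.22 in mutants and 9.17, 9.72 and 9.51 in controls, a difference of -0.12 with a 95% interval of -0.61 to 0.38. The interval on Slco1b2 1427826_a_at, 1.43 to 4.003, overlapped neither that of Slco1a1 1420379_at nor that of Slco1a4. The interval on Slco1b2 1452494_s_at, 0.74 to 2.27, overlapped that of Slco1a1 1420379_at but not that of Slco1a4. That on Slco1b2 1449394_at, 0.16 to 1.11 around 0.63, overlapped both. A difference between probe sets was not tested. Further carriers on this stretch of the chromosome were Slco1a5 at 0.15 and 0.13, Slco1a6 at -0.21 and Slco1c1, the thyroxine carrier of brain vessels, at 0.05, all with overlapping groups.

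Slco2b1, a carrier of steroid sulfates in liver and other tissues, gave differences of both signs. Probe set 1454777_at read 9.15, 9.71 and 8.42 in mutants and 8.28, 8.58 and 8.69 in controls, a difference of 0.58 with overlap, which was 0.27 without mutant 2 and 0.92 without mutant 3. On 1433933_s_at the mutants read 9.32, 7.81 and 7.96 and the controls 9.10, 9.19 and 9.22. Mutant 1 was above every control there and the other mutants at least 1 lower, and the difference was -0.81 with an adjusted p of 0.239 from limma. Without mutant 1 it was -1.29 with an adjusted p of 0.0166, a call made only with this 1 mouse left out. In that fit 2551 probe sets of the whole array were called lower, against 336 with all mice, so the gain is not particular to Slco2b1. The third probe set, 1458171_at, was higher in every mutant, by 0.52.

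Slco2a1 encodes the prostaglandin transporter, which is found in endothelial cells among others. Probe set 1420913_at read 7.78, 6.79 and 7.42 in mutants and 8.47, 8.29 and 7.85 in controls, and 1450032_at read 6.36, 5.71 and 5.54 in mutants and 6.41, 6.91 and 6.68 in controls. Both had every mutant below every control, with differences of -0.87 and -0.80 and adjusted p of 0.129 and 0.125 from limma. The second passed the test without mutant 1, at -1.04 with an adjusted p of 0.0464. That fit called 2551 probe sets of the whole array lower, against 336 with all mice. The other probe sets of the gene differed by -0.01 and -0.02. Of 22 probe sets of 12 sinusoidal endothelial markers, 2 rose and none fell, against 1.25% and 0.746% of all probe sets, namely Stab1 by 1.39 and Stab2 by 1.82, scavenger receptors of these cells, with adjusted p of 0.0499 and 0.0375 from limma. Without any 1 mouse the call on Stab1 was lost, and that on Stab2 held only without mutant 1, and median centring ended both. Leaving out a mouse other than mutant 1 ended nearly every call on the array. The mean of the endothelial list was 8.11 to 8.67 in mutants and 7.57 to 8.10 in controls, and no marker was at 0. Over the 22 endothelial probe sets the median difference was 0.19, against 0.17 over the array, and 16 were positive and 6 negative, among them 4 of the 5 of Fcgr2b. Of the 22, 8 were higher and none lower at an unadjusted p under 0.05 in limma, against 15.7% and 9.54% of all probe sets. The part of these cells in the values of Slco2a1 was not tested.

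Among the remaining Slco genes, Slco5a1, whose substrates are little known, rose on 1440874_at. The mutants read 5.92, 5.94 and 5.89 and the controls 4.51, 5.10 and 4.68. The mutants differed from each other by less than 0.1 on the log2 scale, and all were above the controls. The level in mutants was 2.22-fold that of controls, a difference of 1.15 with a standard error of 0.22 and an adjusted p of 0.0472 from limma. The mean of this probe set lay at the 26.8th percentile of all probe sets, where the signal over background is unknown. After median centring the difference was 0.99 and the adjusted p 0.0647, with quantile normalization the call was lost as well, and of the mice left out in turn it held only without mutant 1. Nearly every call on the array was lost without any other mouse. The second probe set of the gene differed by 0.46 with overlap, and by 0.29 without mutant 1.

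Slco4a1, a carrier of thyroid hormones, was higher in every mutant on both of its probe sets. On 1438160_x_at the mutants read 6.26, 6.72 and 6.69 and the controls 5.69, 5.59 and 5.56, a difference of 0.94 with an adjusted p of 0.0578 from limma, and on 1455803_at the difference was 0.43. Slco4c1, known from kidney, was higher by 0.53 without overlap on 1460616_at and by 0.81 with overlap on 1437870_at. The means of these probe sets lay at the 8.8th and 1.6th percentiles, where the signal over background is unknown. Slco3a1, a prostaglandin carrier, differed by 0.36, 0.13 and -0.16 on its 3 probe sets, with overlap on each. The testis carriers Slco6b1, Slco6c1 and Slco6d1 differed by 0.11 to 0.33, and their groups overlapped on all 4 probe sets.

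Probe sets of 1 gene differed in sign for 3 of 10 Slco genes and 2 of 7 Slc22a genes with several probe sets, or 30% and 28.6%, against 50.8% of 9010 such genes on the array. Arrays also departed from their group means together. Mutant 2 was the highest mutant and control 3 the highest control at the same time on 10 of 32 Slco and 11 of 28 Slc22a probe sets, or 31.2% and 39.3%, against 28.9% of all probe sets. Among members with a mean below the table median it was 14 of 32, against 35.9% of all such probe sets. Slc22a19, Slc22a26, Slc22a2, Slco6c1 and Slco6d1 are the clearest of these, chosen after their values were seen: Slc22a19 read 5.71, 7.20 and 5.55 in mutants and 5.10, 5.77 and 6.82 in controls. Without both of these arrays no member and no probe set passed the test in limma, while 6 Slco and 4 Slc22a probe sets were higher and 1 of each family lower, of 7237 higher and 3586 lower in all, at an unadjusted p under 0.05.

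**Figure D4:**
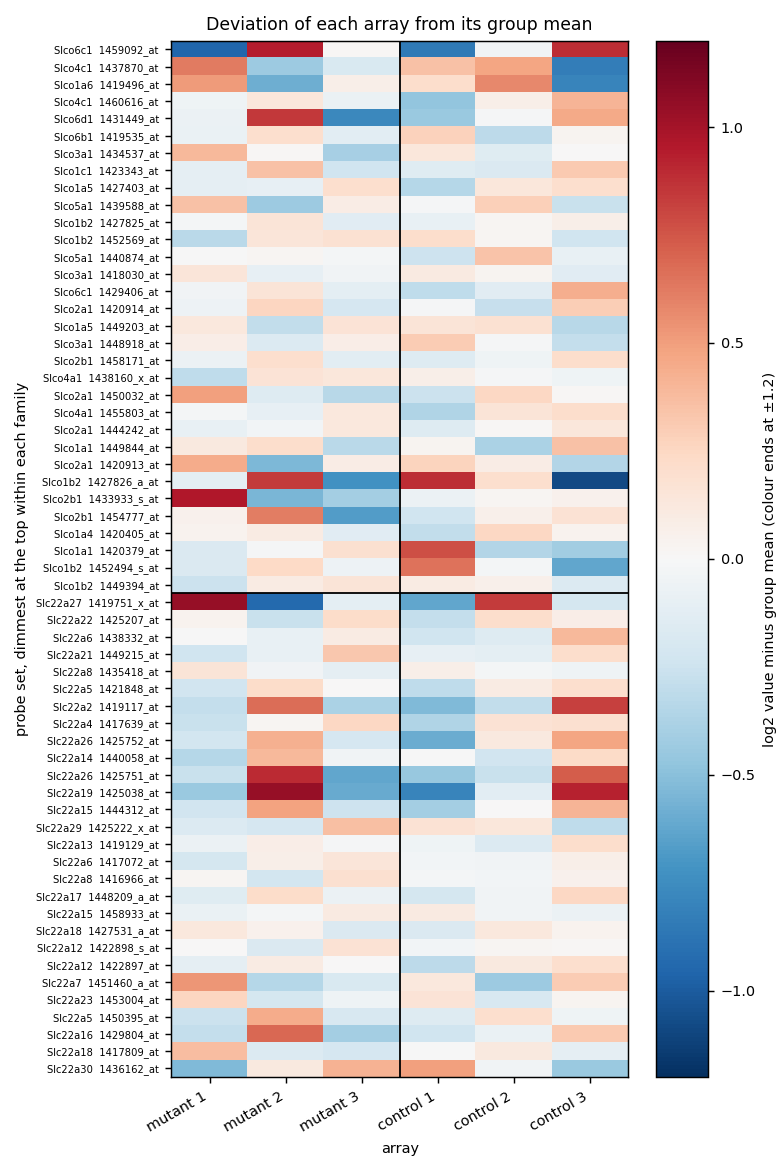
Deviation of each array from its own group mean, as log2 value minus group mean in colour, for the 60 member probe sets (32 Slco above the line, 28 Slc22a below it), ordered from dim to bright within each family. Mutant 2 and control 3 are red together on 10 Slco and 11 Slc22a probe sets in the sense that both are the highest of their group, among them Slco6c1, Slc22a19, Slc22a26 and Slc22a2.

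Downstream of uptake, 19 probe sets of 16 genes for export pumps and other bile acid carriers were read. Of these, 2 rose and 1 fell, against 1.25% and 0.746% of all probe sets, with a median difference of 0.40. Abcb1a, a multidrug export pump, rose by 2.09 on 1419759_at, with mutants at 6.56, 6.91 and 6.58 and controls at 4.51, 4.86 and 4.42 and an adjusted p of 0.0263 from limma. Its other probe set, 1419758_at, differed by -0.34 with overlap. Abcc6, an ABC transporter of the hepatocyte membrane facing the blood, read 11.25, 12.10 and 11.75 in mutants and 9.99, 9.80 and 9.53 in controls, a rise of 1.93 with an adjusted p of 0.0332. Atp8b1, a phospholipid flippase of the canalicular membrane, fell by 1.46, from 8.60, 8.26 and 7.91 in controls to 7.20, 6.38 and 6.81 in mutants, with an adjusted p of 0.0494. Each of the 3 calls held without mutant 1 and was lost without any other 1 mouse, as were nearly all calls on the array. Median centring ended that on Atp8b1. Slc10a1, the sodium-dependent bile acid carrier of the hepatocyte, differed by -0.59 and -0.32 with overlapping groups, and Slc47a1, which exports organic cations, by 0.86 without overlap (adjusted p = 0.0589 from limma).

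Of 31 probe sets of 15 scaffolds and regulators of these carriers, among them the nuclear receptors Nr1h4, Nr1i2, Nr1i3 and Ppara and the factor Hnf4a, none passed the adjusted test in limma, with a median difference of -0.05. At an unadjusted p under 0.05 in limma 6 were higher and 7 lower, against 15.7% and 9.54% of all probe sets. Hepatocyte markers had no call among 16 probe sets either, with none at an unadjusted p under 0.05 in limma, and a median of -0.35. Of the 16, 13 were negative. Kupffer, stellate and bile duct markers also had no call in limma: Kupffer cells with 3 of 11 probe sets higher at an unadjusted p under 0.05, stellate cells with 3 higher and 1 lower of 19, and bile duct with 4 higher of 9, against the same 15.7% higher and 9.54% lower. The median differences were 0.51, 0.26 and 0.58. Differences were positive on 10 of 11 Kupffer, 13 of 19 stellate and all 9 bile duct probe sets, against 65.2% of all probe sets. Their list means were 6.99 to 7.38 in mutants and 6.45 to 6.90 in controls for Kupffer cells, 7.71 to 8.16 and 7.92 to 8.03 for stellate cells, and 6.11 to 6.41 and 5.65 to 5.74 for bile duct. No marker of these lists was at 0 on any array, and their part in the values of the carriers was not tested.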

How the data were processed

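Liver RNA of 3 mutants and 3 controls was grouped from the sample labels. With dChip the authors normalized the probe intensities and fitted its PM-only model, and the values they deposited are log2 intensities, 1 per probe set and array, from 0 to 14.63, of which 40 are exactly 0. Although a C. elegans array is named in the methods, the probe set identifiers are mouse ones. For dChip, its version and baseline array are not given in the sources used. No detection calls were used, so signal over background is unknown, and precision is limited by the number of arrays.

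Of 45101 probe sets, 64 control probe sets were set aside and 45037 were tested in R 4.3.3 by limma 3.58.1 (lmFit, then eBayes), with Benjamini-Hochberg adjustment over all of them at 0.05. The procedure was tested on simulated data with 3 arrays per group, in which 200 probe sets were changed. Of 100 with a true difference of 1 on the log2 scale 2 were called, and of 100 with a difference of 2, 45. Of 44837 unchanged probe sets 1 was called. The lack of a call therefore says little about differences of this size. Symbols came from the platform annotation of the array (34945 probe sets with 1 symbol, 932 with several, 9160 with none), and promoters from RefSeq. The members and gene lists were chosen with earlier results of these data known. Values on every array are given for the probe sets past the threshold with the others of their gene, and for the carriers best known in liver; a further few were named after their values were seen. Genes outside the families come from the gene lists. Alternatives were quantile normalization, median centring, trend and robust options, bright probe sets alone, zeros as missing, 1 value per gene, a replicate block, age, and each mouse left out. Leaving out mutant 2 and control 3 together was chosen after seeing the data. Figures were drawn with matplotlib 3.10.9.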

Additional observations from a re-analysis of the deposited data

How the results depend on the processing

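In the order Slco higher, Slc22a higher, Slc22a lower, all higher and all lower, the probe sets past the adjusted p in limma numbered 1, 1, 1, 561 and 336 on the deposited values. They numbered 0, 1, 1, 461 and 228 after quantile normalization, 0, 1, 0, 150 and 150 after median centring, 3, 1, 1, 864 and 549 with the trend and robust options, 2, 1, 1, 1587 and 1463 among bright probe sets alone, 4, 1, 1, 1392 and 1123 with age as a covariate, 1, 1, 1, 580 and 352 with zeros as missing, 1, 1, 1, 895 and 748 for the brightest probe set of each gene, 0, 0, 0, 309 and 193 for the mean of the probe sets of each gene, and 0 in all 5 without both mutant 2 and control 3. No Slco probe set was lower under these settings. Leaving out each mouse in turn gave 0 to 2 Slco probe sets higher, 0 to 2 lower, 0 to 1 Slc22a higher, 0 to 1 lower, and 0 to 1289 higher and 0 to 2551 lower over all, with the highest value of each count without mutant 1. Over all, 1 was higher and 2 were lower without control 1, and none passed without any other mouse. Calls lost in those fits were thus lost across the array.

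With the replicate number as a block, no probe set passed in limma (0 of each family and 0 of all, with 4548 higher and 3387 lower at an unadjusted p under 0.05). The numbers did not pair the samples: deviations from the group means correlated at 0.06, -0.50 and -0.56 within numbers 1 to 3, against 0.62 for mutant 2 with control 3. The labels call 1 control concurrent with 1 mutant, control 1 with mutant 3, whose deviations correlated at 0.45; a fit with that pair alone as a block was not run.

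For the 30 named probe sets, 451 comparisons were made: 346 kept direction and side of the threshold, 84 kept direction but lost the call, 9 gained one, and 12 changed sign, all of them on probe sets without a call. Slc22a18 1427531_a_at was -0.14 after median centring and -0.0703 to 0.10 with 1 mouse left out. Slc22a5 1421848_at was -0.18 after quantile normalization, -0.15 after median centring, -0.0015 without mutant 2 and control 3, and -0.14 to 0.12 with 1 mouse left out. Slc22a7 was 0.01 without mutant 2 and control 3 (0.0125) and -0.58 to -0.14 with 1 mouse left out. Slco1a4 was 0.0298 after quantile normalization and -0.26 to 0.0097 with 1 mouse left out. The cause was not tested in any of these.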
